A study of Mus musculus with 18 samples.

Results

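The TGF-beta signalling genes described here are 10 genes chosen by name out of 24445 gene symbols in the expression table. They are the ligands Tgfb1, Tgfb2 and Tgfb3, the receptors Tgfbr1, Tgfbr2 and Tgfbr3, the SMAD proteins Smad2, Smad3 and Smad7, and the SMAD co-repressor Skil. Each was represented by 1 transcript, the one with the highest mean level, and all 10 were among the 12599 genes that reached 1 FPKM in 2 or more libraries and were tested. FPKM is a read count scaled to transcript length and to the library's total.

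Transforming growth factor beta is secreted as an inactive complex with its own propeptide and is released outside the cell, in part by integrins. The active ligand binds the type II receptor Tgfbr2, which then phosphorylates the type I receptor Tgfbr1, while Tgfbr3 (betaglycan) is a co-receptor that presents ligand. The activated receptors phosphorylate Smad2 and Smad3, which enter the nucleus with Smad4 and act on target genes. Smad7 and Skil are target genes that feed back: Smad7 blocks the type I receptor and Skil (SnoN) represses SMAD-driven transcription. In fibroblasts the pathway is best known for driving extracellular matrix production and myofibroblast features.

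The study measured RNA from primary fibroblasts of mouse tail tips at passage 5, from mice 2 months old, in 18 libraries from cells of 6 named mice. The mice carried Pro, the progeria allele of the lamin A/C gene Lmna, and a Cas9 transgene in 3 combinations: Pro/Pro;Cas9/+ (here homozygous Cas9 cells), Pro/+; +/+ (heterozygous cells, with no Cas9) and +/+;Cas9/+ (wild-type Cas9 cells). Cells of each mouse received, from a lentivirus with an mCherry reporter, the guide RNA gLmna-2, the guide RNA gLmna-1, both directed at Lmna, or gMock, a guide that matches nothing in the genome, so that each of the 9 groups had 2 libraries. All cultures had been through viral transduction with polybrene, and they were neither sorted nor selected, so that cells without a guide remained in each. The heterozygous cells differ from the wild-type Cas9 cells in both the Lmna allele and Cas9, and these cannot be told apart. The name of the second heterozygous mouse joins a pair of numbers, and the labels do not say whether it was 1 animal or a pool.

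Libraries held between 22424481 and 42622895 reads. Lmna, the targeted gene, was between 196 and 333 FPKM under gLmna-2, between 217 and 299 FPKM under gLmna-1 and between 236 and 381.4 FPKM under gMock over the 3 genotypes. A short change in its sequence need not alter its RNA level, so that this does not check the editing. All 11 fibroblast markers averaged at least 1 FPKM over the 18 libraries, with a summed level between 6969 and 9318 FPKM. In a single group the mean could be lower, as for Fap at 0.939 FPKM in wild-type Cas9 cells under gMock. Counts of markers at a mean of 1 FPKM refer to all 18 libraries throughout. None of 6 endothelial markers reached that mean. Macrophage markers were also present, 13 of 14 at that mean, and their summed level was between 566.8 and 1844 FPKM in homozygous Cas9 cells, between 89.0 and 733 FPKM in heterozygous cells and between 85.0 and 503 FPKM in wild-type Cas9 cells. Replicates are separate mice, per the labels. In these cultures, fewer cells of a type and less RNA per cell cannot be told apart.

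Among the ligands Tgfb3 had the highest level, with a mean of 124 ± 29.2 FPKM (SD over 18 libraries), followed by Tgfb1 at 26.9 ± 11.6 FPKM and Tgfb2 at 9.32 ± 3.42 FPKM. Tgfb3 stood at the 96.8th percentile of tested genes by mean level. Among the receptors the order was Tgfbr2 at 73.6 ± 25.9 FPKM, Tgfbr3 at 24.6 ± 5.43 FPKM and Tgfbr1 at 5.76 ± 0.954 FPKM. Of the intracellular genes, Smad3 averaged 22.0 ± 4.30 FPKM, Smad7 16.0 ± 7.85 FPKM, Skil 8.22 ± 3.23 FPKM and Smad2 7.85 ± 0.543 FPKM. In the order of levels the neighbours were not separated: Tgfb3 and Tgfbr2 overlapped over the libraries, as did Tgfb1, Tgfbr3, Smad3 and Smad7, and Tgfb2, Skil, Smad2 and Tgfbr1. Smad7 varied most, 4.55-fold between its highest and lowest library, and Smad2 least, 1.28-fold.

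**Figure D1:**
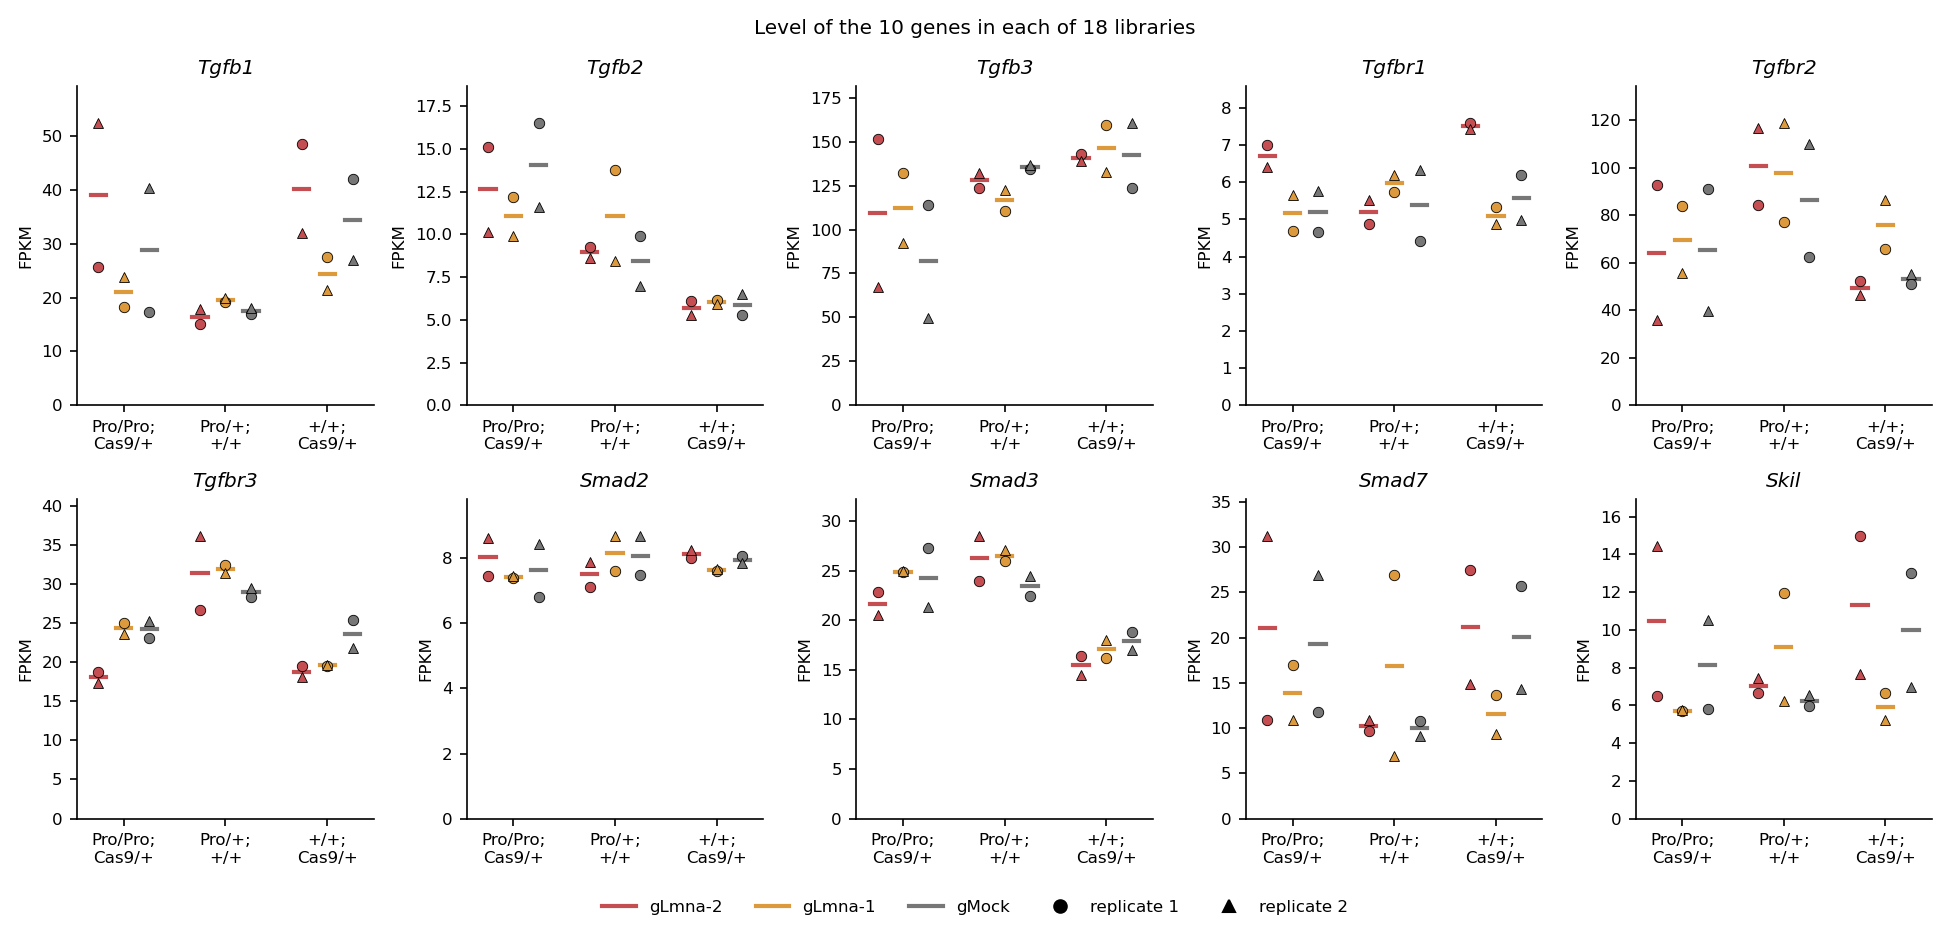
FPKM (vertical axis, from 0, a scale of its own in each panel) of the 10 genes in each of 18 libraries. Points are libraries (circle, replicate 1, triangle, replicate 2), bars are means of 2 mice, colours are guides, and genotypes run left to right. Tgfb2 and Smad3 lay lower in all 6 wild-type Cas9 libraries than in all 6 homozygous Cas9 libraries, and Smad2 was nearly level throughout.

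Each guide was first compared with gMock. In homozygous Cas9 cells, 0 of the 10 genes passed the threshold for both Lmna guides against gMock (limma with the mouse as a block, Benjamini-Hochberg adjusted p under 0.05), where 0.0794% of all tested genes passed. Tgfb3, the most abundant ligand, had 151 and 67.1 FPKM under gLmna-2, 132 and 92.3 FPKM under gLmna-1 and 114 and 49.8 FPKM under gMock in replicates 1 and 2 of these cells. Within each of the 2 mice both guide libraries were above the gMock library, but the groups overlapped between mice. The log2 difference of the guides from gMock was 0.48 ± 0.15 (SE), with a limma adjusted p of 0.43. Tgfb3 was the 1 member with an unadjusted p under 0.05, a level that 1055 of 12599 tested genes reached. The 2 guides share their gMock libraries. Against gMock alone, 0 of 10 members passed for gLmna-1, where 0.976% of all tested genes did. At an unadjusted p under 0.05 stood 1 member and 2265 of 12599 tested genes. For gLmna-2, 0 of 10 passed, where 0.357% of all tested genes did, with 4 members and 1272 tested genes at that unadjusted level. Refitting the recovered reads with limma voom gave 0 members in each of these comparisons. Leaving out the gLmna-1 library of replicate 1 brought Tgfb3 past the threshold for both guides (log2 difference 0.64, limma adjusted p 0.0497), and Tgfb1 and Tgfb3 past it for gLmna-1 alone. The gLmna-1 arm of these cells is then 1 library, assumed to vary like the other groups.

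In wild-type Cas9 cells 0 of 10 members passed for both guides against gMock, where 0.849% of tested genes passed. An unadjusted p under 0.05 was reached by 1 member, Tgfbr3, and by 959 of 12599 tested genes. Tgfbr3, the co-receptor, had 19.5 and 18.1 FPKM under gLmna-2, 19.6 and 19.7 FPKM under gLmna-1 and 25.4 and 21.9 FPKM under gMock. All 4 guide libraries were below both gMock libraries, and the log2 difference was -0.28 ± 0.10 (SE, limma adjusted p 0.52). In heterozygous cells, which had no Cas9, 0 of 10 members passed, 0 had an unadjusted p under 0.05, and 0% of all tested genes passed (397 at an unadjusted p under 0.05). The effect of both guides in homozygous Cas9 cells minus that in wild-type Cas9 cells passed for 0 members, where 0.0476% of tested genes passed, and minus that in heterozygous cells for 0 members, where 0% passed. In the second of these, Tgfb2, Tgfb3 and Tgfbr3 had an unadjusted p under 0.05, in the first none. With limma voom, too, 0 members passed in each of these comparisons.

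The comparison between the guides themselves held the 1 member that passed in any of the 13 comparisons planned. In homozygous Cas9 cells Tgfb1 was higher under gLmna-2 than under gLmna-1. Tgfb1 encodes the founding ligand of the family and lies at chr7:25687002-25705077 on the plus strand (mm10), with 9 exon parts in the table. The letters before its start are shown beside those before the start of Tgfbr2, since these 2 genes had the most opposite pattern of all member pairs over the libraries. Both stretches are the 250 bases before the start in the RefSeq promoter table (build GRCm38.p6), 5′ to 3′ on the gene's strand. Tgfb1 is at chr7:25686752-25687001 and Tgfbr2 at chr9:116175364-116175613 on the minus strand. Capitals mark GGGCGG, the GC box, on either strand.
Tgfb1: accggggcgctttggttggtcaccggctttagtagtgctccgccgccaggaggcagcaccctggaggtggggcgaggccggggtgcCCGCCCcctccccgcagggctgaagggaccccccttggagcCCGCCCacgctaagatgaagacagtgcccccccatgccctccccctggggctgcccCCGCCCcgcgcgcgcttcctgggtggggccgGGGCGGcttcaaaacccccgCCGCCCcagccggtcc
Tgfbr2: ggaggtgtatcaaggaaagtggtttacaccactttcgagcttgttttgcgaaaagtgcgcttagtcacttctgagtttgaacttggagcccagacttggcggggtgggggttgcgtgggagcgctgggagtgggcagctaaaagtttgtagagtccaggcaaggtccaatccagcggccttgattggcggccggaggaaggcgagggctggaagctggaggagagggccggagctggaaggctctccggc
The Tgfb1 stretch holds 5 GC boxes and the Tgfbr2 stretch 0, and 32.7% of 32851 promoter stretches of the same length hold at least 1. CAGAC, the core of the SMAD-binding element, was found 0 times for Tgfb1 and 1 time for Tgfbr2 on both strands together, and 42.2% of the stretches hold it. The table matched 5 of the 10 members by symbol (Tgfb1, Tgfb2, Tgfbr1, Tgfbr2 and Smad3), and a match of letters is a description only.

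Tgfb1 had 25.7 and 52.5 FPKM under gLmna-2, 18.2 and 23.9 FPKM under gLmna-1 and 17.4 and 40.5 FPKM under gMock in homozygous Cas9 cells. In wild-type Cas9 cells it had 48.5 and 32.1 FPKM under gLmna-2, 27.6 and 21.4 FPKM under gLmna-1 and 42.1 and 27.0 FPKM under gMock. In heterozygous cells it had 15.1 and 17.8 FPKM under gLmna-2, 19.2 and 19.99 FPKM under gLmna-1 and 17.0 and 18.1 FPKM under gMock. In both genotypes with Cas9 the gLmna-2 libraries lay above the gLmna-1 libraries with no overlap, and in the cells without Cas9 the order was the other way round, by a smaller margin. The log2 difference between gLmna-2 and gLmna-1 in homozygous Cas9 cells was 0.79 ± 0.16 (SE, limma adjusted p 0.0184, n = 2 mice), higher in 2 of 2 mice. This is 1 of 10 members, in a comparison in which 9.95% of all tested genes passed, 6.92% higher and 3.02% lower, so that the share of members is close to that of all genes. The call was lost without the gLmna-2 library of replicate 1 (adjusted p 0.0816), without that of replicate 2 (0.136), without the mouse block (0.355) and in a fit to homozygous Cas9 libraries alone (0.241), and the difference was 0.43 when replicate 2 of gLmna-1 was left out. Under the other settings, with all libraries kept, the adjusted p of Tgfb1 lay between 0.0112 and 0.035. With replicate 1 of gLmna-1 omitted, Tgfb1 (1.15), Skil (1.12) and Tgfbr2 (-0.58) passed, with a single gLmna-1 library in these cells and the spread taken from the other groups. Macrophage markers summed to 1844 and 947.5 FPKM under gLmna-2 and to 566.8 and 1411 FPKM under gLmna-1 in these cells. The sum was thus higher under gLmna-2 in replicate 1 and lower in replicate 2. By the mean difference over both mice 13 of 14 of them were higher under gLmna-2, and 0 were called. Smooth muscle and pericyte markers, of which 4 of 6 reached a mean of 1 FPKM, summed to between 43.5 and 54.5 FPKM under gLmna-2. Under gLmna-1 they summed to between 25.5 and 35.2 FPKM, and Des, Cspg4 and Mcam passed as higher. Des averaged 0.771 FPKM over the 4 guide libraries and is also a skeletal muscle marker. Skeletal muscle markers (1 of 7 at that mean) summed to 3.10 and 3.25 FPKM under gLmna-2 and 1.40 and 1.35 FPKM under gLmna-1. Of these, Myod1 and Myf5 were at 0 under both guides. Pigment and Schwann cell markers (4 of 9 at that mean) were also higher in both mice, at 17.8 and 44.4 FPKM under gLmna-2 and 11.47 and 26.1 FPKM under gLmna-1, with none passing.

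Other marker lists were lower under gLmna-2 in these cells. The single markers that passed between the guides stand beside 6.92% of all tested genes that were higher and 3.02% that were lower. Cartilage and bone markers (5 of 8 at that mean) summed to 35.3 and 249 FPKM under gLmna-2 and 175 and 440 FPKM under gLmna-1, and Col2a1 (-2.31 ± 0.54 SE, limma adjusted p 0.0308) and Ibsp (-1.23 ± 0.29 SE, limma adjusted p 0.0324) passed. Adipocyte markers (3 of 6 at that mean) summed to 39.8 and 41.5 FPKM under gLmna-2 and 54.3 and 71.98 FPKM under gLmna-1, with no overlap. Fabp4 passed (-0.74 ± 0.14 SE, limma adjusted p 0.0144). It made up most of these sums, with a mean of 44.75 FPKM over the 4 guide libraries, beside 4.89 FPKM for Lpl and 2.25 FPKM for Pparg. The keratinocyte marker Trp63 also passed as lower, and of the fibroblast markers Thy1 and Prrx1 passed as higher and Col1a1 as lower. Among the pigment and adipocyte markers, those at 0 in both libraries were Tyr under gLmna-1, Adipoq and Cidec under gLmna-2, and Plin1 and Cidec under gLmna-1. No macrophage, smooth muscle or cartilage marker was at 0. The part of these cells in the values of Tgfb1 and of the pathway genes was not tested.

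In wild-type Cas9 cells the same difference for Tgfb1 was 0.68 ± 0.16 (SE), with a limma adjusted p of 0.36. There 0 of 10 members passed and 0% of all tested genes did, with 1009 genes and 4 members (Tgfb1, Tgfbr1, Tgfbr2 and Skil) at an unadjusted p under 0.05. The difference in homozygous Cas9 cells minus that in wild-type Cas9 cells was 0.11 ± 0.23 for Tgfb1 (SE, limma adjusted p 0.93). In that comparison 0 of 10 members and 0.0476% of tested genes passed. At an unadjusted p under 0.05 stood 0 members and 1250 tested genes. In heterozygous cells Tgfb1 was -0.24 ± 0.16 (SE, limma adjusted p 1), and 0 of 10 members and 0% of all tested genes passed, with 266 genes and 0 members at an unadjusted p under 0.05. With limma voom, 0 members passed in each of these 3 comparisons.

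The type I receptor Tgfbr1 (chr4:47353222-47414924, plus strand) had 6.99 and 6.42 FPKM under gLmna-2 and 4.68 and 5.66 FPKM under gLmna-1 in homozygous Cas9 cells. In wild-type Cas9 cells it had 7.60 and 7.42 FPKM under gLmna-2 and 5.34 and 4.87 FPKM under gLmna-1. In heterozygous cells it had 4.86 and 5.53 FPKM under gLmna-2 and 5.75 and 6.19 FPKM under gLmna-1. The 4 gLmna-2 libraries with Cas9 held the highest levels of Tgfbr1 in the study. The log2 difference was 0.32 ± 0.12 in homozygous Cas9 cells (SE, limma adjusted p 0.14) and 0.48 ± 0.12 in wild-type Cas9 cells (SE, limma adjusted p 0.41), neither past the threshold.

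A comparison added after the data had been seen set the gLmna-2 to gLmna-1 difference in the 4 mice with Cas9 against that in the 2 mice without. Within single mice the Tgfb1 difference was 0.48, 1.10, 0.79 and 0.56 on the log2 scale with Cas9, and -0.33 and -0.16 without. The Tgfbr1 differences lay between 0.16 and 0.52 with Cas9 and between -0.20 and -0.14 without. Smad2 was split in the same way, between 0.008 and 0.189 with Cas9 and between -0.125 and -0.083 without. Exchanging the 6 mice between these sets (exact permutation test, two-sided) gave p = 0.0667 for Tgfb1, Tgfbr1 and Smad2, the smallest value that so few mice allow, and larger values for the other 7 members. In the limma fit the difference of differences was 0.98 ± 0.20 for Tgfb1 (SE, adjusted p 0.10) and 0.57 ± 0.15 for Tgfbr1 (SE, adjusted p 0.16). There 0 of 10 members and 0% of all tested genes passed, with 1728 genes and 3 members at an unadjusted p under 0.05 and 0 members with limma voom. Without the gLmna-1 library of replicate 1 of the homozygous Cas9 cells, 3 members passed, Tgfb1, Tgfbr2 and Skil (Tgfb1 1.15, adjusted p 0.00239). Cas9 and the heterozygous allele cannot be told apart in this comparison.

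**Figure D2:**
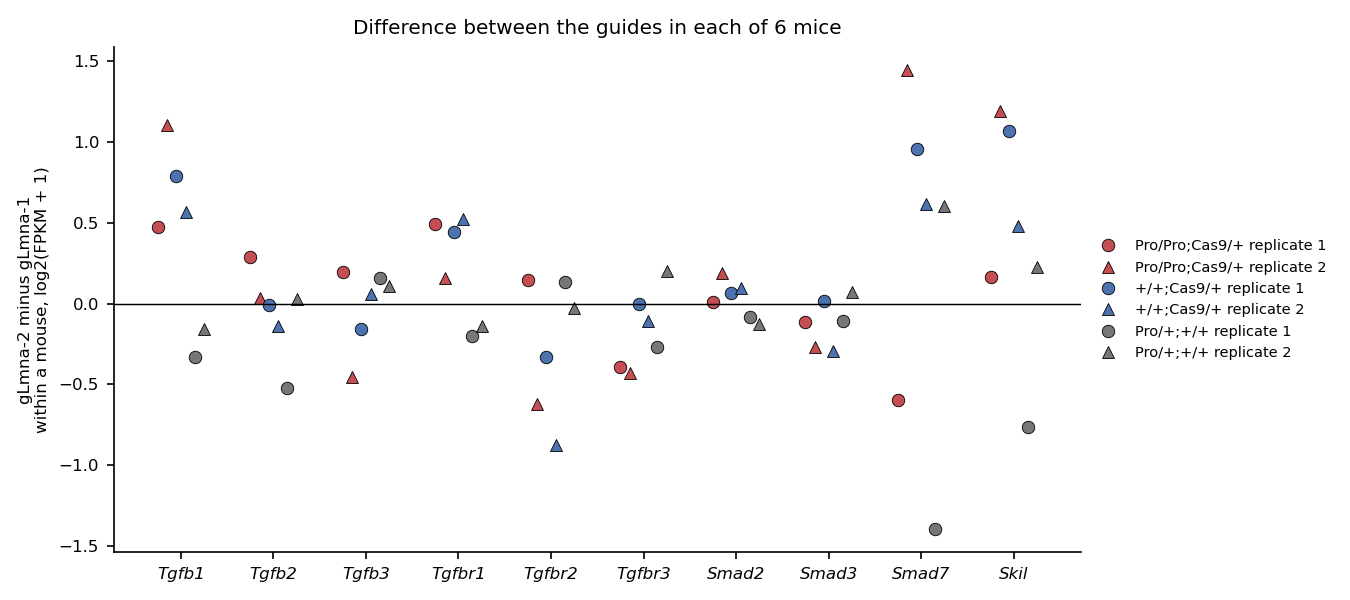
Difference between gLmna-2 and gLmna-1 within each mouse on the log2(FPKM + 1) scale (vertical axis) for the 10 genes. Red and blue points are mice with Cas9, grey points mice without, and shapes are replicates. Tgfb1, Tgfbr1 and Smad2 lay above 0 in all 4 mice with Cas9 and below 0 in both mice without. For Smad2 the lowest difference with Cas9 was 0.008.

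Tgfbr2, the type II receptor (chr9:116087695-116175363, minus strand), had 92.7 and 35.8 FPKM under gLmna-2, 83.8 and 55.6 FPKM under gLmna-1 and 90.9 and 39.8 FPKM under gMock in homozygous Cas9 cells. Wild-type Cas9 cells had 52.2 and 46.5 FPKM under gLmna-2, 65.8 and 86.2 FPKM under gLmna-1 and 51.1 and 55.3 FPKM under gMock. In heterozygous cells it had 84.5 and 117 FPKM under gLmna-2, 77.0 and 119 FPKM under gLmna-1 and 62.3 and 110.1 FPKM under gMock. The 2 homozygous mice stood further apart than the guides within either, and in wild-type Cas9 cells both gLmna-1 libraries lay above the other 4. The gLmna-2 to gLmna-1 difference was -0.24 ± 0.18 in homozygous Cas9 cells (SE, limma adjusted p 0.47) and -0.60 ± 0.18 in wild-type Cas9 cells (SE, limma adjusted p 0.44).

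Tgfbr2 also has an alternative coding exon, the insert of the type IIB receptor form, which is exon 2 of the longer transcript at chr9:116158271-116158345 on the minus strand (mm10). Its 75 bases are shown because the table counts this exon apart from the others. They were read from the GENCODE transcripts, 5′ to 3′, with no part in capitals.
Tgfbr2 insert: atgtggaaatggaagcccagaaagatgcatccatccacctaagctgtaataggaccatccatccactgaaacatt
The insert had a mean of 15.2 FPKM against 32.6 FPKM in the exon parts on either side. The ratio to those neighbours was 0.464 ± 0.11 (SD over 18 libraries), between 0.123 and 0.622, and rested on 5 to 74 reads per library. By group it was highest in heterozygous cells under gLmna-1, at 0.545 ± 0.075, and lowest in wild-type Cas9 cells under gMock, at 0.269 ± 0.21 (SD, n = 2 each), and the libraries of these 2 groups did not overlap. The lowest ratio, in the first wild-type mouse under gMock, rests on 5 reads. An alternative part of Tgfb2 was nearly empty, with 0 to 4 reads and a ratio to its neighbours of 0.051 ± 0.037. The 90-base part of Smad2, the exon that its shorter protein form lacks, had a ratio of 1.59 ± 0.21, between 1.21 and 1.89. These 3 ratios are descriptions of the parts and were not tested.

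The co-receptor Tgfbr3 (chr5:107106570-107289595, minus strand) had 18.8 and 17.4 FPKM under gLmna-2 and 25.02 and 23.7 FPKM under gLmna-1 in homozygous Cas9 cells. The 2 groups did not overlap, and the log2 difference was -0.41 ± 0.11 (SE, limma adjusted p 0.0522), lower in 2 of 2 mice. It passed with limma voom on the recovered reads (adjusted p 0.0469). In heterozygous cells Tgfbr3 was between 26.8 and 36.2 FPKM. That was above every library of the homozygous Cas9 cells (17.4 to 25.3 FPKM) and of the wild-type Cas9 cells (18.1 to 25.4 FPKM). These are 3 libraries from each of 2 mice per genotype and not independent values. Under gMock alone heterozygous cells differed from wild-type Cas9 cells by 0.28 ± 0.12 (SE, limma adjusted p 0.40).

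The guides were set against genes of the same pathway drawn up by role, in homozygous Cas9 cells. For gLmna-2 against gLmna-1, the background was the 6.92% of all tested genes that were higher and the 3.02% that were lower. Of 16 tested genes of latency and activation, 3 were higher under gLmna-2 than under gLmna-1 and none lower, with a list median of 0.03 on the log2 scale against 0.06 over all tested genes. All 3 encode integrin subunits that can release the ligand from its complex or pair with one that does. Itgav had 30.0 and 36.65 FPKM under gLmna-2 and 17.55 and 23.7 FPKM under gLmna-1, a log2 difference of 0.67 ± 0.08 (SE, limma adjusted p 0.00378). Itgb1 differed by 0.64 ± 0.08 (SE, adjusted p 0.00437) and Itgb3 by 1.14 ± 0.16 (SE, adjusted p 0.00630). Itgb3 had 2.96 and 4.60 FPKM under gLmna-2 and 1.09 and 1.18 FPKM under gLmna-1. For Itgav and Itgb1 too the groups did not overlap.

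Of 12 other receptors and co-receptors, Acvrl1, the type I receptor ALK1, best known in endothelium, was higher, at 6.33 and 5.76 FPKM under gLmna-2 and 2.89 and 2.68 FPKM under gLmna-1 (log2 difference 0.89 ± 0.10 SE, limma adjusted p 0.00301), with a list median of 0.10. Of 20 other SMADs and regulators, 3 were higher and none lower, beside 6.92% and 3.02% of all tested genes, and the list median was 0.14. They were the ubiquitin ligases Smurf1 (0.50 ± 0.13 SE, limma adjusted p 0.0470) and Smurf2 (0.69 ± 0.11 SE, adjusted p 0.00812), which mark receptors and SMADs for breakdown, and Pmepa1 (0.67 ± 0.11 SE, adjusted p 0.00820), a target gene that holds back receptor-bound SMADs. Pmepa1 also stands in the list of target genes.

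Of 12 secreted binders and antagonists, 1 was higher and 2 lower, again beside 6.92% and 3.02% of all tested genes, and the list median was -0.16. Grem1, a BMP antagonist, had 351 and 627 FPKM under gLmna-2 and 73.4 and 200.3 FPKM under gLmna-1, a log2 difference of 1.94 ± 0.27 (SE, limma adjusted p 0.00605). Fst, the activin binder follistatin, was lower by -1.12 ± 0.24 (SE, adjusted p 0.0232) and Fstl1 by -0.35 ± 0.09 (SE, adjusted p 0.0423). Of 11 other ligands of the family, 3 were higher (Inhba, Inhbb and Bmp2) and 2 lower (Bmp4 and Bmp1), with a list median of 0.48. Bmp1 is a procollagen protease and not a ligand, in spite of its name. Inhba and Inhbb, the activin subunits, differed by 0.78 ± 0.14 (SE, adjusted p 0.0131) and 0.72 ± 0.17 (SE, adjusted p 0.0282), and Bmp4 by -0.90 ± 0.17 (SE, adjusted p 0.0151).

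Of 34 tested target genes of TGF-beta, 3 were higher, a share near the 6.92% of all tested genes, and 5 were lower, where 3.02% of all tested genes were. The list median was 0.12. The higher ones were Pmepa1, Timp3, an inhibitor of matrix proteases, and the cytokine Il11. Il11 had 7.999 and 13.02 FPKM under gLmna-2 and 2.81 and 2.499 FPKM under gLmna-1 (log2 difference 1.62 ± 0.26 SE, limma adjusted p 0.00898). The lower ones, Col1a1, Col3a1, Lox, Comp and Itga11, encode collagens, a collagen crosslinker, a matrix protein and a collagen receptor. Col3a1 had 314 and 116 FPKM under gLmna-2 and 531 and 462 FPKM under gLmna-1 (-1.37 ± 0.29 SE, limma adjusted p 0.0220). The 8 target genes that passed thus moved in both directions. Of these, Timp3, Col1a1, Lox, Comp and Itga11 were not followed over the other settings, nor were the ligand list genes Bmp1 and Bmp2.

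A difference between the guides does not tell which guide departs from gMock. For gLmna-2 against gMock, the log2 difference was 0.89 for Acvrl1, 0.88 for Grem1, 0.84 for Itgb3, 0.82 for Inhbb and 0.67 for Il11. It was 0.38 for Pmepa1, 0.33 for Itgb1, 0.30 for Inhba, 0.16 for Smurf1 and 0.07 for Fstl1. For Itgav it was -0.002, for Smurf2 -0.02, for Fst -0.15, for Bmp4 -0.18 and for Col3a1 -0.15. The calls between the guides rest on the fit to all 18 libraries. Of 15 pathway genes named by the rule that passed, 0 passed in a fit to homozygous Cas9 libraries alone, and 1, Itgb1, passed without the mouse block. With no filter on low values 12 passed, with Smurf1, Fstl1 and Inhbb lost, and with median-of-ratios scaling 14 passed, with Smurf1 lost. Without the gLmna-2 library of replicate 1, 4 passed, and without that of replicate 2, 6 passed. Without the gLmna-1 library of replicate 2, 9 passed, and without that of replicate 1, 14 passed. Itgav, Itgb1 and Acvrl1 passed in all 4 of these fits.

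For both guides against gMock in homozygous Cas9 cells, 0 genes of the 6 pathway lists passed limma's test. None of those named here passed with limma voom. Of all 12599 tested genes, 1055 had an unadjusted p under 0.05. At an unadjusted p under 0.05 stood 5 of 16 latency genes, 1 of 12 other receptors, 1 of 20 other SMADs and regulators, 3 of 12 binders, 2 of 11 other ligands and 5 of 34 target genes. Among latency genes the smallest p belonged to Itgav (-0.34), Ltbp1 (-0.33) and Ltbp2 (-0.31), of which the last 2 encode proteins that anchor the latent ligand in the matrix. Among receptors and regulators it belonged to Acvrl1 (0.45), Bmpr2 (-0.16), Eng (0.09), Smurf2 (-0.37), Smad9 (-0.50) and Ube2o (-0.17). Among binders and ligands it belonged to Fstl1 (0.24), Dcn (0.60), Aspn (0.40), Bmp1 (0.25), Inhbb (0.45) and Bmp4 (0.27), and among target genes to Ltbp2, Tgfb1i1 (0.22) and Timp3 (-0.39). These are log2 differences, and the adjusted p was between 0.18 (Acvrl1 and Itgav) and 0.86 (Eng). For gLmna-2 alone against gMock, Acvrl1 passed (0.89 ± 0.10 SE, limma adjusted p 0.0163), where 0.357% of all tested genes did. This call of Acvrl1 was not followed over the other settings.

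**Figure D3:**
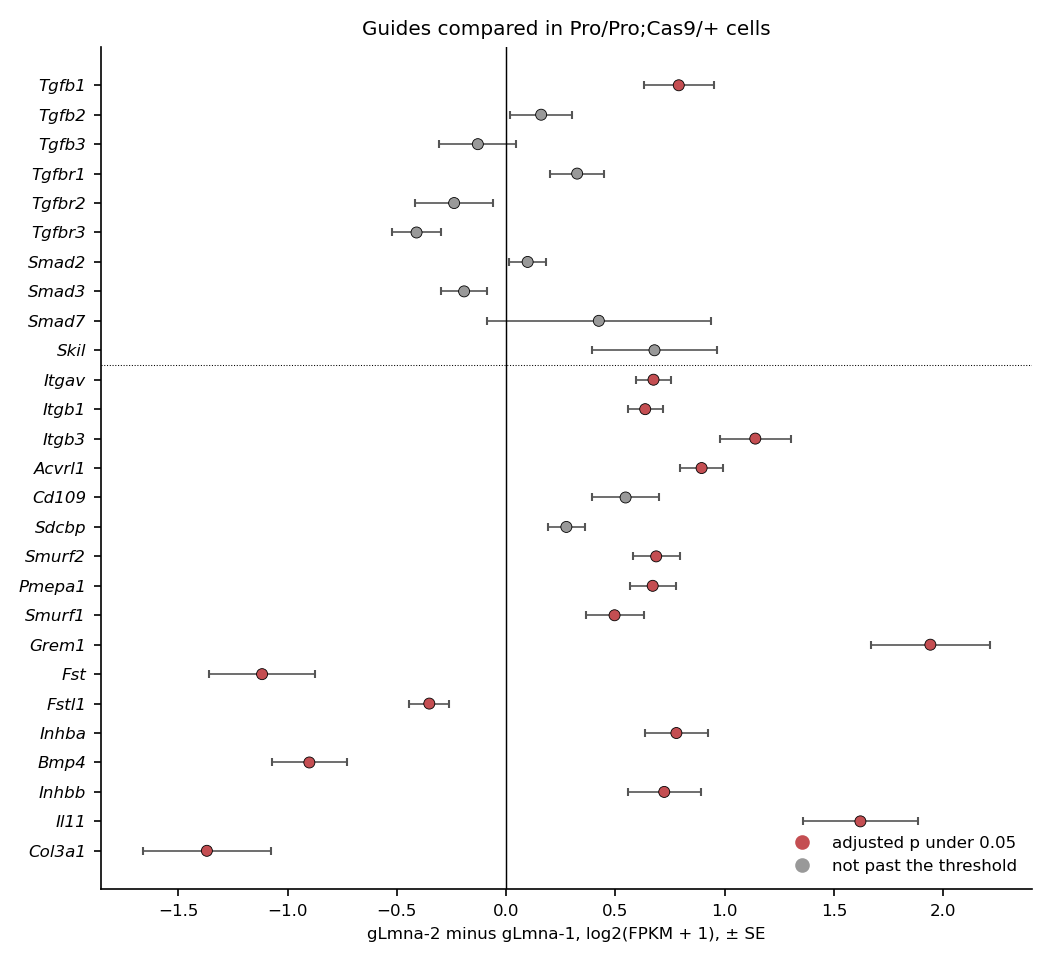
Log2 difference between gLmna-2 and gLmna-1 in homozygous Cas9 cells (horizontal axis, log2(FPKM + 1), bars are SE) for the 10 genes, above the dotted line, and pathway genes named by the rule, below it. Red points passed an adjusted p of 0.05. Tgfb1 is the 1 red point of 10 above the line.

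Genotypes were compared under gMock. In homozygous Cas9 cells against wild-type Cas9 cells, both of which carry Cas9, 0 of 10 members passed, where 0.397% of tested genes did. An unadjusted p under 0.05 was reached by 2 members, Tgfb2 and Smad3, and by 1308 of 12599 tested genes. Tgfb2 (chr1:186622792-186705989, minus strand) is the ligand that needs Tgfbr3 most for receptor binding. It had 16.5 and 11.6 FPKM under gMock in homozygous Cas9 cells, 9.91 and 7.005 FPKM in heterozygous cells and 5.28 and 6.50 FPKM in wild-type Cas9 cells. The 3 genotypes did not overlap under gMock. The difference between homozygous and wild-type Cas9 cells was 1.12 ± 0.23 on the log2 scale (SE, n = 2 mice each, limma adjusted p 0.16).

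The guide libraries of the same mice gave further values for Tgfb2. It had 15.1 and 10.2 FPKM under gLmna-2 and 12.2 and 9.92 FPKM under gLmna-1 in homozygous Cas9 cells. In heterozygous cells it had 9.28 and 8.60 FPKM under gLmna-2 and 13.8 and 8.44 FPKM under gLmna-1, and in wild-type Cas9 cells 6.10 and 5.31 FPKM under gLmna-2 and 6.14 and 5.94 FPKM under gLmna-1. All 6 homozygous Cas9 libraries (9.92 to 16.5 FPKM) thus lay above all 6 wild-type Cas9 libraries (5.28 to 6.50 FPKM), and the heterozygous libraries overlapped the homozygous ones. These are 3 libraries from each of 2 mice and not 6 independent values. In a fit to all 18 libraries with the mouse as a random effect Tgfb2 passed (1.12 ± 0.22 SE, limma adjusted p 0.0158), the 1 member that did. Over the other settings and with each gMock library left out, its difference lay between 0.88 and 1.35 and its adjusted p between 0.12 and 0.61.

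Smad3, a receptor-activated SMAD (chr9:63646767-63757994, minus strand), had 27.3 and 21.4 FPKM under gMock in homozygous Cas9 cells, 22.5 and 24.5 FPKM in heterozygous cells and 18.8 and 17.0 FPKM in wild-type Cas9 cells. Over all treatments it was between 20.5 and 27.3 FPKM in homozygous Cas9 cells, between 22.5 and 28.5 FPKM in heterozygous cells and between 14.5 and 18.8 FPKM in wild-type Cas9 cells. Both genotypes with a Pro allele thus lay above the wild-type Cas9 libraries with no overlap. These too are 3 libraries from each of 2 mice per genotype and not independent values. The share of all tested genes with such a separation was not counted, here or for Tgfb2. Under gMock the log2 difference from wild-type Cas9 cells was 0.41 ± 0.15 for homozygous Cas9 cells (SE, limma adjusted p 0.39) and 0.37 ± 0.15 for heterozygous cells (SE, limma adjusted p 0.39). Smad2, the other receptor-activated SMAD of this pathway (chromosome 18), was between 6.81 and 8.69 FPKM in all 18 libraries, and its differences under gMock were -0.06 ± 0.15 and 0.02 ± 0.15 (SE, limma adjusted p 1.00 and 0.98).

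Tgfb3 (chr12:86056743-86079041, minus strand) differed under gMock by -0.89 ± 0.38 (SE, limma adjusted p 0.51) between homozygous and wild-type Cas9 cells, with 114 and 49.8 FPKM in homozygous Cas9 cells and 124 and 161 FPKM in wild-type Cas9 cells. The lowest values came from the second homozygous mouse, whose 3 libraries lay between 49.8 and 92.3 FPKM. The other 15 libraries were above 110 FPKM. In heterozygous cells against wild-type Cas9 cells under gMock 0 of 10 members passed, where 0.413% of tested genes did. At an unadjusted p under 0.05 stood 1 member, Smad3, and 1577 of 12599 tested genes. With limma voom, 0 members passed in both genotype comparisons.

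Under gMock the summed level of the macrophage markers was highest in homozygous Cas9 cells, at 722.4 and 885.7 FPKM. It was 415 and 89.0 FPKM in heterozygous cells and 311 and 85.0 FPKM in wild-type Cas9 cells, which overlapped. Lyz2 made up much of these sums, with a mean under gMock of 152.5 FPKM in heterozygous and 120.7 FPKM in wild-type Cas9 cells. Cartilage and bone markers, of which 5 of 8 reached a mean of 1 FPKM, summed to between 122.8 and 442 FPKM under gMock in homozygous Cas9 cells, between 114 and 186 FPKM in heterozygous cells and between 32.8 and 75.8 FPKM in wild-type Cas9 cells. Adipocyte markers, 3 of 6 at that mean, summed to between 54.6 and 54.7 FPKM under gMock in homozygous Cas9 cells, between 48.6 and 57.3 FPKM in heterozygous cells and between 25.9 and 33.8 FPKM in wild-type Cas9 cells. Over all treatments they were between 38.0 and 71.98 FPKM in the 12 libraries with a Pro allele. In the 6 wild-type Cas9 libraries they were between 25.9 and 33.8 FPKM, with no overlap, as for Smad3. Fabp4 made up most of these sums, with a mean under gMock of 47.95 FPKM in heterozygous and 22.5 FPKM in wild-type Cas9 cells. Pparg went the other way there, at 1.26 and 3.53 FPKM, and Lpl was near level, at 3.74 and 3.78 FPKM. Of the fibroblast markers Pdgfra (-1.16), Thy1 (-3.26) and Dpt (-3.49) passed as lower on the log2 scale in homozygous than in wild-type Cas9 cells. Their limma adjusted p was 0.0375, 0.0422 and 0.0375, in a comparison in which 0.397% of all tested genes passed. Lum, on the same list, was higher by 1.52 and did not pass (limma adjusted p 0.34). The summed level of the fibroblast markers was 6969 to 7863 FPKM in homozygous and 7604 to 7971 FPKM in wild-type Cas9 cells under gMock. The part of these cells in the levels of Tgfb2 and Smad3 was not tested.

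**Figure D4:**
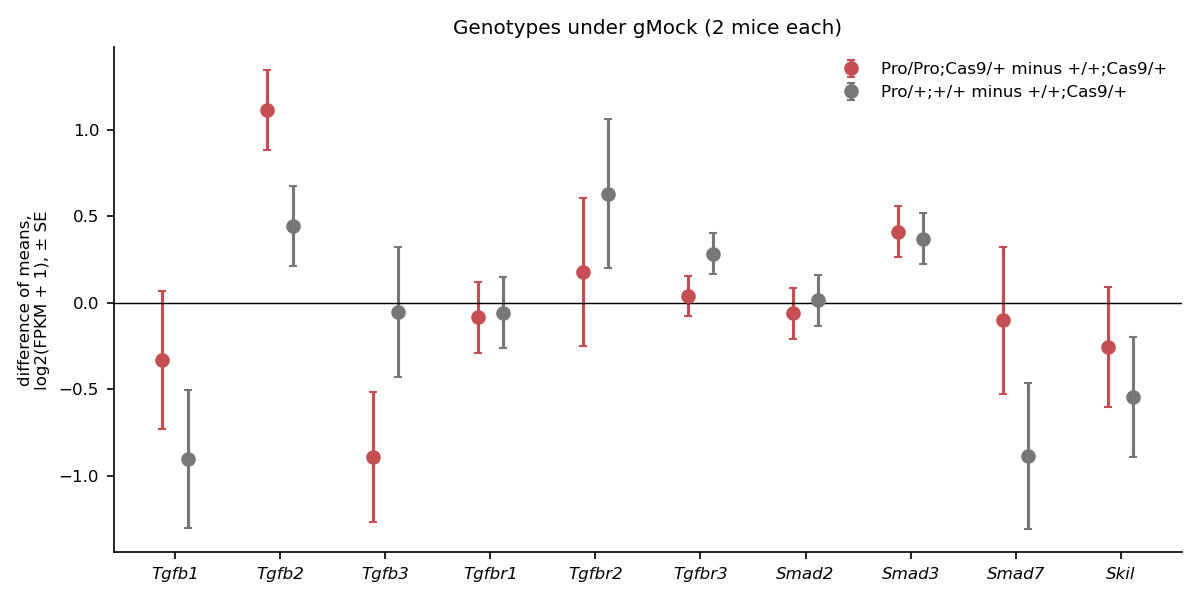
Log2 difference under gMock of homozygous Cas9 cells (red) and heterozygous cells (grey) from wild-type Cas9 cells, for the 10 genes (vertical axis, log2(FPKM + 1), points are differences of the means of 2 mice, bars are SE). Tgfb2 has the highest red point, at 1.12, and none of the points passed an adjusted p of 0.05.

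Of the pathway lists, 1 gene passed between homozygous and wild-type Cas9 cells under gMock, where 0.397% of all tested genes did. It was the activin subunit Inhbb of the 11 other ligands. Inhbb had 14.7 and 14.8 FPKM in homozygous Cas9 cells, 24.9 and 27.9 FPKM in heterozygous cells and 84.2 and 65.7 FPKM in wild-type Cas9 cells. The log2 difference of Inhbb from wild-type Cas9 cells was -2.26 ± 0.14 for homozygous Cas9 cells (SE, limma adjusted p 0.0278). For heterozygous cells it was -1.46 ± 0.14 (SE, limma adjusted p 0.0289), where 0.413% of all tested genes passed, so that Inhbb passed in both comparisons. For homozygous Cas9 cells its adjusted p was between 0.0532 and 0.249 with each gMock library left out in turn, so that the call rests on all 4, while the difference stayed between -2.44 and -2.08. None of 16 latency genes, 12 other receptors, 20 other SMADs and regulators, 12 binders and 34 target genes passed. At an unadjusted p under 0.05 stood 3, 1, 1, 3 and 8 genes of these lists in that order, beside 1308 of 12599 tested genes. None of those named here from these lists passed with limma voom. The smallest p among latency genes belonged to Lrrc32 (-1.41) and Nrros (1.49), both of which tether latent ligand at the cell surface, and to Itgb3 (-1.14). Among receptors and regulators it belonged to Acvrl1 (-1.11), Bmpr1a (0.28), Bmpr1b (0.42), Pmepa1 (-0.64), Nedd4l (-0.55) and Ski (-0.16). Among binders and the other ligands it belonged, beside Inhbb, to the matrix proteoglycans Fmod (1.52) and Lum (1.52), to Nog (-0.47), Inhba (-0.37) and Bmp4 (0.98). Among target genes it belonged to Fn1 (fibronectin, 1.34), Itga11 (1.44) and Tgfbi (1.23). These are log2 differences of homozygous from wild-type Cas9 cells, with an adjusted p between 0.12 (Fn1 and Acvrl1) and 0.80 (Ski). The summed macrophage markers, like Nrros, were higher in homozygous than in wild-type Cas9 cells under gMock. The part of macrophages and other cells in the values of Nrros and the other list genes was not tested.

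The feedback genes varied between libraries more than between groups. Smad7 (chromosome 18) had 10.9 and 31.2 FPKM under gLmna-2, 17.0 and 10.9 FPKM under gLmna-1 and 11.7 and 26.9 FPKM under gMock in homozygous Cas9 cells. In heterozygous cells it had 9.63 and 10.9 FPKM under gLmna-2, 27.0 and 6.86 FPKM under gLmna-1 and 10.7 and 9.18 FPKM under gMock. Wild-type Cas9 cells had 27.5 and 14.9 FPKM under gLmna-2, 13.7 and 9.40 FPKM under gLmna-1 and 25.8 and 14.3 FPKM under gMock. In 5 libraries Smad7 was above 20 FPKM, and in the other 13 it was below 18 FPKM.

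Skil (chr3:31095058-31122923, plus strand) was highest in the same 5 libraries. It had 6.50 and 14.5 FPKM under gLmna-2, 5.68 and 5.77 FPKM under gLmna-1 and 5.78 and 10.5 FPKM under gMock in homozygous Cas9 cells. In heterozygous cells it had 6.63 and 7.45 FPKM under gLmna-2, 11.96 and 6.22 FPKM under gLmna-1 and 5.98 and 6.53 FPKM under gMock. Wild-type Cas9 cells had 14.98 and 7.66 FPKM under gLmna-2, 6.64 and 5.21 FPKM under gLmna-1 and 13.03 and 6.95 FPKM under gMock. Skil was above 10 FPKM in these 5 libraries and below 8 FPKM in the other 13. They came from the second homozygous mouse (gLmna-2 and gMock), the first wild-type mouse (gLmna-2 and gMock) and the first heterozygous mouse (gLmna-1), so that no genotype or guide held all of them. The gLmna-2 to gLmna-1 difference in homozygous Cas9 cells was 0.42 ± 0.51 for Smad7 (SE, limma adjusted p 0.67) and 0.68 ± 0.28 for Skil (SE, limma adjusted p 0.17).

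The genes most like each member over the 18 libraries were taken as the 3 tested genes of mean at least 2 FPKM with the highest Pearson correlation. The libraries share mice, with 3 from each, and the correlations are descriptions over 18 points that are not independent. For Smad7 they were Mafk (0.953), Hbegf (0.950) and Id1 (0.949), and for Skil they were Klf10 (0.943), Dnajb4 (0.941) and Sertad2 (0.937). Klf10, a TGF-beta-inducible transcription factor, was between 20.7 and 47.4 FPKM in the 5 libraries and between 2.82 and 8.29 FPKM in the other 13. It was picked by its correlation with Skil over these same libraries, so that this separation follows from the choice and is a description only. For Tgfb1 they were Plekhm2 (0.961), Cd109 (0.959), a cell-surface protein that binds the ligand, and Ttc7 (0.957). For Tgfbr2 they were Lrp4 (0.945), Sting1 (0.913) and Hccs (0.912).

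Tgfb2 was followed most closely by Qsox1 (0.916), Clip4 (0.904) and Mfge8 (0.888), Tgfb3 by Pdlim2 (0.909), Pdgfd (0.907) and Nfatc4 (0.902), and Smad3 by Farp1 (0.926), Sorcs2 (0.925) and Plod1 (0.924). Tgfbr3 was followed by Mapk8 (0.895), Ganab (0.889) and Usp11 (0.880), Smad2 by Fnip2 (0.873), Epb41l4a (0.847) and Vamp3 (0.830), and Tgfbr1 by Dnajc1 (0.845), Dock1 (0.801) and Sipa1l2 (0.800). Among the members themselves the highest correlation was that of Smad7 with Skil (0.881), and the lowest that of Tgfb1 with Tgfbr2 (-0.802). Tgfb1 correlated with Skil at 0.766 and with Smad7 at 0.742, and Tgfbr2 with Smad7 at -0.731. The library with the highest Tgfb1 and Smad7, gLmna-2 of the second homozygous mouse, also had the lowest Tgfbr2.

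**Figure D5:**
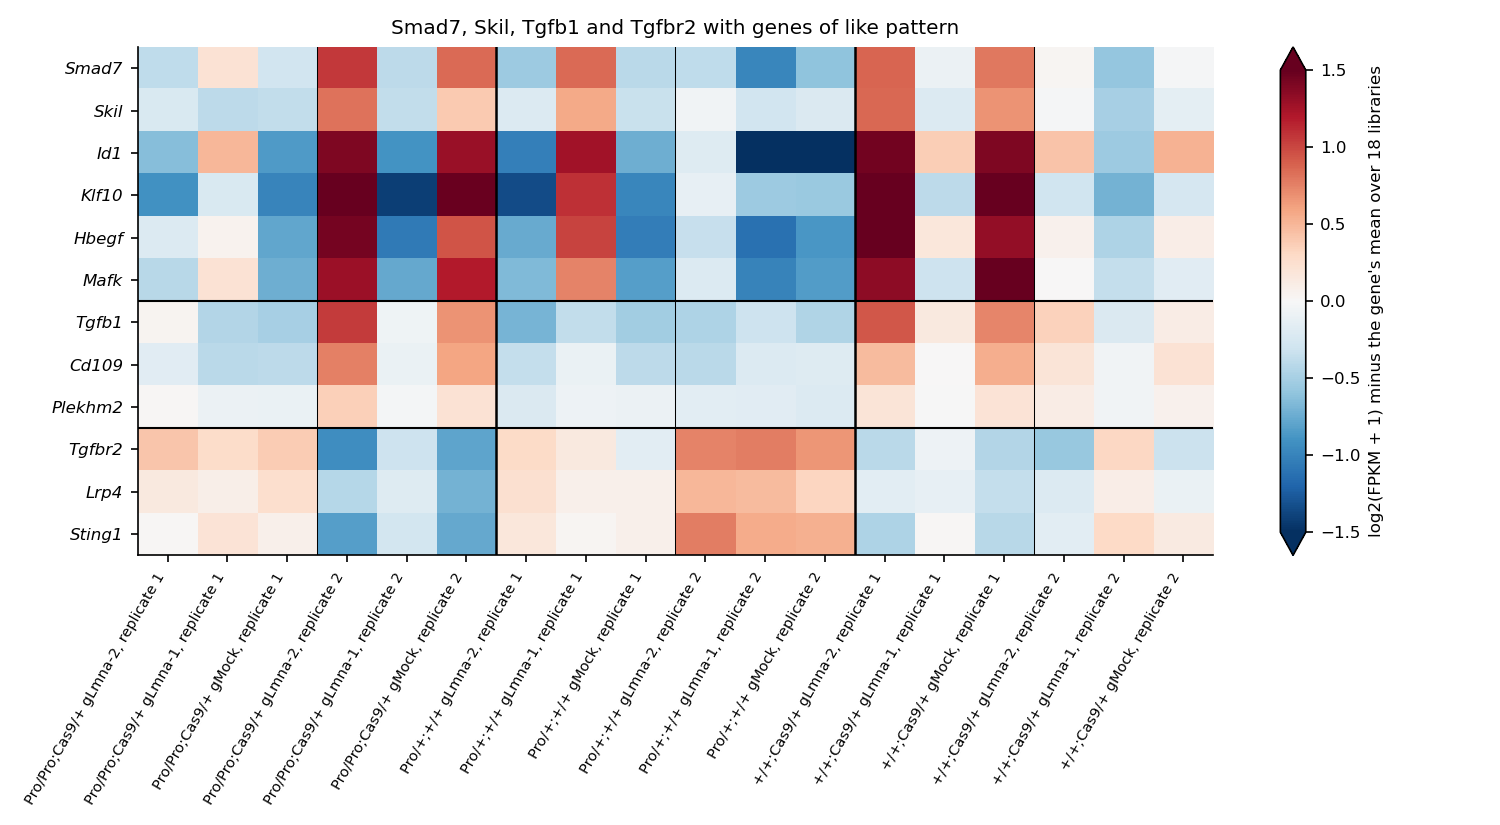
Level of Smad7, Skil, Tgfb1 and Tgfbr2 and of genes most like them, as log2(FPKM + 1) minus the gene's mean over 18 libraries (colour, cut at 1.5 in both directions), by library (columns, 3 per mouse). Smad7, Skil, Id1, Klf10, Hbegf and Mafk are red in the same 5 libraries, while Tgfbr2 is blue in 4 of them. Id1, Klf10, Hbegf and Mafk were chosen by their correlation with Smad7 or Skil over these libraries.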

How the data were processed

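RNA of 18 libraries was sequenced by the study. The deposited table holds FPKM values made by the authors with HOMER on mm10, per the file headers, one for each of 404759 transcript parts with the part's length. The design had assumed a value per gene. FastQC 0.11.2, STAR 2.4.0k and HOMER are named in the submitters' processing notes, and whether strand was used in counting is not given in the sources used here. Of 24 library columns 18 matched a sample, and the other 6 were not used. No part of the members overlaps another gene in the table.

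Parts were combined by length into 36795 transcripts, and the transcript with the highest mean level stands for each of 24445 symbols. The values are whole multiples of 1 read (100% within 0.05 of a whole number), which gave 22424481 to 42622895 reads per library. The depth leaves the members at least 605 reads in each library, and 0 of 153 library pairs were identical.

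Tests used limma 3.58.1 (R 4.3.3) with a trended prior on log2(FPKM + 1), for 12599 symbols with 1 FPKM or more in 2 libraries or more, with Benjamini-Hochberg adjustment over all of them and a threshold of 0.05. A fold change on this scale understates the change of low genes. Comparisons between guides used all 18 libraries with the mouse as a block (6 residual degrees of freedom), since the labels' mouse names tie the treatments of 1 mouse together. Residuals of same-mouse libraries correlated at -0.0193 to 0.778 in homozygous Cas9 cells, at 0.472 to 0.734 in heterozygous cells and at 0.176 to 0.59 in wild-type Cas9 cells. Comparisons between genotypes used the 6 gMock libraries (3 residual degrees of freedom).

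The members and lists were chosen with earlier results of these data known. From each pathway list the text names up to 3 genes with the smallest p in each of 3 comparisons, and the 3 nearest genes of each member. Other list genes that passed (Bmp1, Bmp2, Timp3, Col1a1, Lox, Comp and Itga11) and single marker genes are named after their values were seen. Alternatives were a pseudocount of 0.1, no filter on low values, median-of-ratios scaling, the longest transcript and limma voom on the recovered reads. Further ones were no mouse block, only the genotypes compared, and each library left out. For genotypes there were also a block by whether the sample title holds a library number, and a random mouse effect. Other steps ran in Python 3.11.15 with pandas 2.3.3, and figures in matplotlib 3.10.9.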

Additional observations from a re-analysis of the deposited data

How the results depend on the processing

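The number of members past the threshold moved in few settings. For gLmna-2 against gLmna-1 in homozygous Cas9 cells, where 1 member passed, 2 passed with limma voom on the recovered reads (Tgfb1 and Tgfbr3). With no replicate block (the mouse left out of the fit) 0 passed, and with only homozygous Cas9 libraries fitted 0 passed. With each library left out in turn, between 0 and 3 members passed. For both guides against gMock in homozygous Cas9 cells that range was 0 to 1, for gLmna-1 against gMock 0 to 2, and for the added comparison of mice with and without Cas9 0 to 3. In each of these the highest number came without gLmna-1 replicate 1 of the homozygous Cas9 cells. Between homozygous and wild-type Cas9 cells under gMock, 1 member (Tgfb2) passed with all 18 libraries and a random mouse effect, against 0. Where leaving a library out leaves an arm with 1 library, that library is assumed to vary like the other groups. The causes were not tested.

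Differences of members that had not passed changed sign in 32 cases, all of them with 1 library left out. For both guides against gMock in homozygous Cas9 cells, the log2 difference ranged as follows: Tgfb1 -0.18 to 0.30, Tgfbr2 -0.11 to 0.23, Smad2 -0.067 to 0.11, Smad3 -0.19 to 0.081, Smad7 -0.63 to 0.32, Skil -0.28 to 0.17. For gLmna-2 against gLmna-1 in these cells the ranges were Tgfb3 -0.46 to 0.20, Tgfbr2 -0.58 to 0.10, Smad2 -0.013 to 0.21, Smad7 -0.52 to 1.37. For the genotypes with Cas9 under gMock, homozygous minus wild type, they were Tgfb1 -0.92 to 0.26, Tgfbr1 -0.22 to 0.04997, Tgfbr2 -0.41 to 0.76, Tgfbr3 -0.066 to 0.14, Smad2 -0.20 to 0.077, Smad7 -0.67 to 0.46, Skil -0.67 to 0.15. No other setting changed a sign. In the sample titles 1 mouse of each genotype has a library number in its names, which is the replicate number under another form. The column headers of the deposited values carry such a number for all 18 libraries. A block by its presence in the title thus marks only how the titles were written. The labels name no other tie between these mice. With that block the count of members stayed at 0 under gMock.

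Over all tested genes, the count for gLmna-2 against gLmna-1 in homozygous Cas9 cells, 1253, lay between 0 and 1392 over the other settings and between 140 and 2631 with 1 library left out. Each member had at least 605 reads in each library, and depth limits the exon ratios most, with 5 to 74 reads for the Tgfbr2 insert. No group had more than 2 mice.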
